A study of Mus musculus with 4 samples.

Results

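The genes described here are 8 members of the *Sox* family other than the chondrogenic trio *Sox5*, *Sox6* and *Sox9*: the SoxC genes *Sox4*, *Sox11* and *Sox12*, and the lineage-restricted genes *Sox2*, *Sox8*, *Sox10*, *Sox17* and *Sox18*. They were taken by gene symbol from the 22096 symbols in the deposited tables, in which *Sox* genes number 20, and each member has 1 RefSeq transcript entry. RNA came from RFP-positive cells sorted from the palatal shelves of 4 littermate mouse embryos at embryonic day 13.5, on a mixed background. All 4 embryos were heterozygous for the *Osr2*RFP knock-in allele, whose RFP marks *Osr2*-expressing palatal mesenchyme. Of these, 2 were *Foxf2*-/-, lacking *Foxf2* in every tissue, and the 2 controls were 1 *Foxf2*+/+ and 1 *Foxf2*+/- embryo, so each control genotype had no replicate. The comparison asks which genes respond when the forkhead factor Foxf2 is lost from the palatal mesenchyme.

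Sox proteins bind the minor groove of DNA through an HMG box and are sorted into groups by its sequence. SoxC proteins act in many embryonic progenitors, among them mesenchyme and differentiating neurons, where they promote cell survival and maturation. The other members are better known as markers of particular lineages: Sox2 of stem cells, neural tissue and oral epithelium, Sox10 and its SoxE relative Sox8 of neural crest and its glia, and the SoxF proteins Sox17 and Sox18 of endothelium and, for Sox17, endoderm.

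The HMG-box coding stretch of *Sox11* and *Sox4* is shown because *Sox* groups are sorted by the box and this pair was the most alike over it. Stretches alike between genes can limit how well short reads separate them. The sequences below were read from the mm9 genome 5′ to 3′ along the coding strand, and capitals mark bases of *Sox4* that differ from *Sox11* at the same position. Both genes lie on the minus strand, the stretches at chr12:28026899-28027135 for *Sox11* and chr13:29044486-29044722 for *Sox4*.
Sox11: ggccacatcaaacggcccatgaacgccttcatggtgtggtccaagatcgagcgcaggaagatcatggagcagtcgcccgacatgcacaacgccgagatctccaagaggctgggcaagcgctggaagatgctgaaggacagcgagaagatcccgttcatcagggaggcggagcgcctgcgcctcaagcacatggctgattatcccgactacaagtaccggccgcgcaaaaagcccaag
Sox4: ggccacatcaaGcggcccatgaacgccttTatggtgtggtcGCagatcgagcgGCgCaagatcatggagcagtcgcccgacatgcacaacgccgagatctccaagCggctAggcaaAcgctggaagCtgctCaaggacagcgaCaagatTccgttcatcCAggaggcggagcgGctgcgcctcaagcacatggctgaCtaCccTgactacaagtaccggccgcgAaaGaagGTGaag
Over these 237 coding bases *Sox4* differed from *Sox11* at 25 positions. The identity was 89.5% between *Sox4* and *Sox11*, 81.4% between *Sox8* and *Sox10*, and 82.3% between *Sox17* and *Sox18*, whereas the 23 pairs of members from different *Sox* groups reached 62.9% to 70.04%. Along whole transcripts the longest run shared without a mismatch was 48 bases, between *Sox4* and *Sox11*, and in the other pairs it was 13 to 33 bases. A 50-base window was used, close to the 51.3 to 53.3 bases of coverage that 1 read was worth in these tables. It matched within 2 mismatches at 13 window positions between *Sox4* and *Sox11* and at 11 between *Sox4* and *Sox12*. Windows shifted by 1 base were counted separately, so these are not counts of separate stretches. The other 26 of 28 pairs had no such match, so matches close to a read's length were found for these 2 pairs alone.

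The transcript of *Sox11* (chr12:28019133-28027583, 8451 bases), *Sox4* (chr13:29042599-29045551, 2953 bases), *Sox12* and *Sox2* (chr3:34548927-34551382, 2456 bases) is a single uninterrupted exon in the deposited tables. *Sox8* (chr17:25702838-25707631), *Sox10* (chr15:78985343-78994920), *Sox17* (chr1:4481009-4486494) and *Sox18* (chr2:181404542-181406345) are spliced. *Sox2* lies within the locus of the noncoding gene *Sox2ot* on the same strand, with 0 of its 2456 bases in an annotated *Sox2ot* exon. *Sox4* is overlapped by the annotated gene *Gm17419* on the opposite strand, which was not analysed here, and the library kit is not stated to keep strand. *Sox4* also shares chromosome 13 with the targeted gene, 2675.1 kb from *Foxf2*.

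Levels are in FPKM, which scales fragments by transcript length and library size so that genes can be set side by side. Every library matched its label, with *Foxf2* at 85.4 FPKM (*Foxf2*+/+), 45.1 (*Foxf2*+/-), and 1.41 and 2.28 (*Foxf2*-/-). *Osr2*, the basis of the sort, ranged from 129 to 147 FPKM. The files hold no read counts, but the ratio of coverage to FPKM put the libraries at 1.02 to 1.19 times the depth of the *Foxf2*+/+ library. Read numbers given below are estimates from coverage times transcript length.

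The SoxC genes had the highest mean levels of the *Sox* genes in the palatal mesenchyme, and their levels ran in the order *Sox11*, *Sox4*, *Sox12* in all 4 embryos. *Sox11* was at 81.1 FPKM in the *Foxf2*+/+ control and 76.3 in the *Foxf2*+/- control, and at 74.0 and 73.9 in the *Foxf2*-/- embryos. *Sox4* was at 28.0 and 27.4 FPKM in controls in the same order, against 27.5 and 33.4 in the mutants. *Sox12* was at 16.5 and 18.3 FPKM in controls, against 16.6 and 19.0 in the mutants. The ranges of these 3 genes did not overlap one another. *Sox9*, the next gene, ran from 13.2 to 17.2 FPKM and overlapped the range of *Sox12*. By their mean percentile among 21352 genes, *Sox11* stood at 98.1, *Sox4* at 93.8 and *Sox12* at 88.9.

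Together the SoxC genes made up 82.2% of the FPKM summed over the 20 *Sox* genes in the *Foxf2*+/+ control and 83.4% in the *Foxf2*+/- control, against 84.1% and 83.2% in the *Foxf2*-/- embryos. Their summed level was 126 and 122 FPKM in controls, against 118 and 126 in the mutants, and the groups overlapped. *Sox11* alone was 62.5% to 64.5% of the SoxC level in the controls and 62.7% and 58.5% in the mutants, the lowest share being in the mutant embryo with the most *Sox4*. These levels correspond to an estimated 16321 to 19749 reads for *Sox11* and 1883 to 2985 for *Sox4* and *Sox12*.

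**Figure D1:**
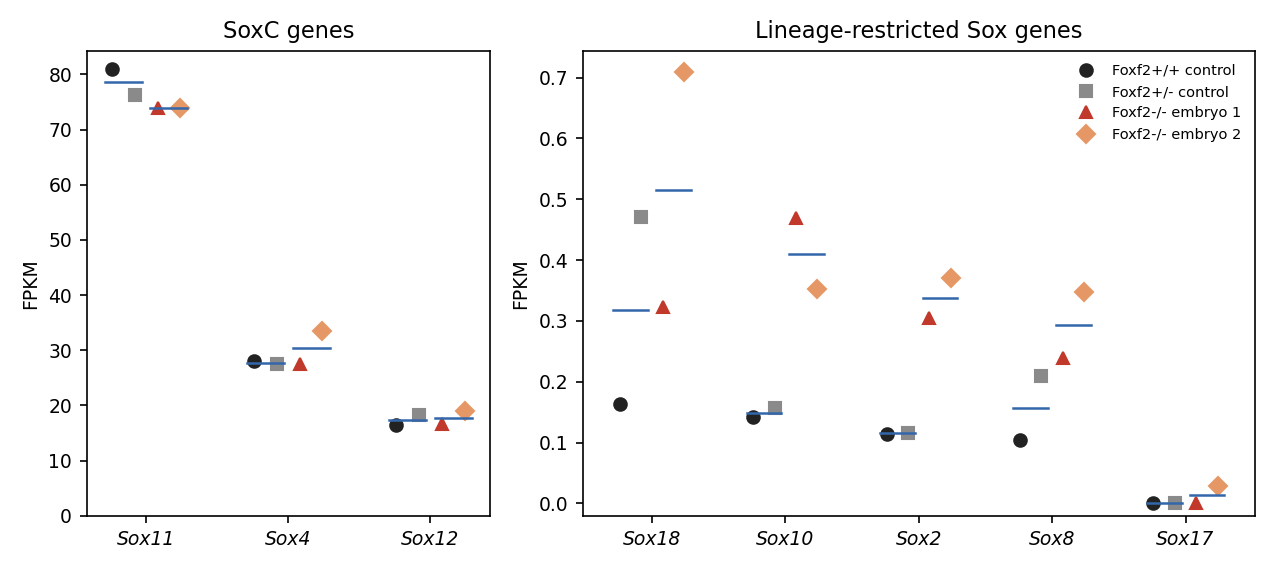
FPKM of the 8 *Sox* members in each of the 4 embryos, 1 symbol per embryo, with blue lines at the group means (n = 2 per group); the SoxC genes are on the left and the lineage-restricted genes on the right, on separate linear axes. The SoxC genes lie between 16.5 and 81.1 FPKM in every embryo, while no lineage-restricted gene exceeds 0.709 FPKM, and the mutant symbols of *Sox10*, *Sox2* and *Sox8* lie above both controls.

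No SoxC gene passed the test between *Foxf2*-/- and control embryos. limma, at a Benjamini-Hochberg adjusted p below 0.05 with a fold change above 1.5, called 0 of 3, and 0 of 3 had an unadjusted p under 0.05, a level that 13% of all genes past the filter reached. Over the 11154 genes with a mean FPKM of at least 1, limma called 0.0538% higher and 0.00897% lower in the mutants. On log2(FPKM + 0.1), the scale of all fold changes here, *Sox11* differed by -0.09 (standard error 0.083, adjusted p = 0.686, limma), *Sox4* by 0.13 (standard error 0.110, adjusted p = 0.658, limma) and *Sox12* by 0.03 (standard error 0.107, adjusted p = 0.936, limma). The 95% intervals bounded the mutant level of *Sox11* to between 0.822 and 1.08 times the control level, that of *Sox4* to between 0.914 and 1.31 times, and that of *Sox12* to between 0.858 and 1.21 times. A change of 1.5-fold lay outside all 3 intervals.

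*Sox11* was the only SoxC gene whose groups did not overlap, with both mutants below both controls. That pattern held for 35.8% of genes past the filter, and the opposite one, seen in 0 of the 3, for 9.89%, and the median log2 difference over all these genes was -0.08. After scaling by median ratios, which moved that median to -0.00145, the difference was -0.01 for *Sox11*, 0.21 for *Sox4* and 0.11 for *Sox12*. Without that scaling, the direction of *Sox4* rested on the second *Foxf2*-/- embryo, and leaving this embryo out gave a log2 difference of -0.01. Leaving out embryos was not combined with the scaling. By the criterion of a change over 1.5-fold from each control, 0 of 3 SoxC genes qualified, beside 0.717% of genes past the filter that did so upward and 0.681% downward.

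**Figure D2:**
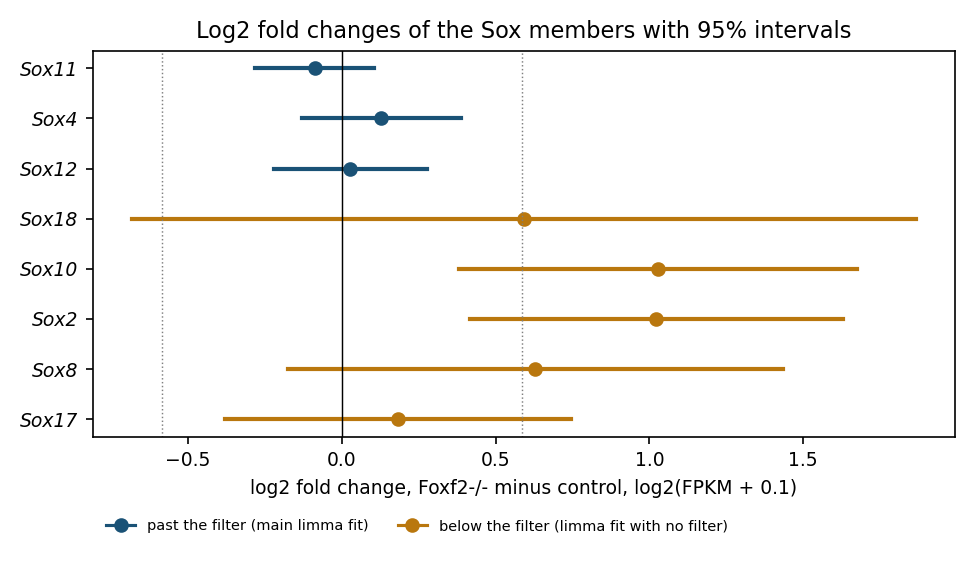
Log2 fold change of each member, mutant minus control on log2(FPKM + 0.1), with its 95% interval from limma; dark blue marks genes past the filter and orange those below it, taken from the fit without a filter, and the dotted lines mark 1.5-fold. The 3 SoxC intervals include 0 and stay inside the dotted lines, and of the 5 orange intervals only those of *Sox2* and *Sox10* exclude 0.

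The genes whose levels were nearest to each SoxC gene over the 4 embryos, by Euclidean distance on log2(FPKM + 0.1) among 11153 genes, were *Cic* (distance 0.08) and *Zfp414* (0.12) for *Sox4*. For *Sox11* they were *Gatad2b* (0.04) and *Psmc5* (0.08), and for *Sox12* they were *Trip6* (0.05) and *Chmp4b* (0.06). The distance counts level as well as pattern.

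Of 7 genes linked to SoxC function, 5 passed the filter, and limma called 0 of the 5, with adjusted p-values of 0.517 to 0.993. *Tead2*, a known SoxC target in mesenchyme, was at 46.9 and 43.3 FPKM in controls, against 43.5 and 48.3 in the mutants. *Plxna1*, a semaphorin receptor gene regulated by SoxC in neurons, was at 17.5 and 17.7 FPKM against 16.6 and 18.6. *Tubb3*, a neuronal tubulin and SoxC target, was at 2.09 FPKM in the *Foxf2*+/+ control, 4.04 in the *Foxf2*+/- control, and 3.62 and 4.18 in the mutants, so its low value was in 1 control. These 3 genes overlapped between the groups. *Pou3f3*, a POU factor gene, was at 13.5 and 9.84 FPKM against 9.35 and 9.96, and *Dcx*, of migrating neurons, was at 0.891 to 1.23. *Pou3f2*, encoding a neural POU partner of Sox proteins, was listed at 0 in both controls and at 0.098 and 0.176 FPKM in the mutants. Both mutants were above both controls for 15.6% of the genes below the filter. *Nrcam* was also below the filter, at 0.50 to 0.82 FPKM.

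The lineage-restricted genes were present at trace levels, all 5 below the filter of a mean of 1 FPKM. In the *Foxf2*-/- embryos *Sox10*, *Sox2* and *Sox8* were above both controls, *Sox18* overlapped them, and *Sox17* was near 0 throughout. Because a low FPKM rests on few reads, these values are given with the reads they are estimated to represent.

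*Sox10*, the neural crest and glial factor, was at 0.142 FPKM in the *Foxf2*+/+ control, 0.156 in the *Foxf2*+/- control, and 0.469 and 0.352 in the *Foxf2*-/- embryos. These values stand for about 10 and 13 reads in the controls and 33 and 29 in the mutants. The mean FPKM was 0.149 ± 0.010 in the controls and 0.411 ± 0.083 in the mutants (SD, n = 2 each), a ratio of 2.76, or 2.04-fold with the pseudocount.

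*Sox2* was at 0.114 FPKM in the *Foxf2*+/+ control, 0.117 in the *Foxf2*+/- control, and 0.305 and 0.371 in the mutants, about 7, 9, 20 and 28 reads. The groups were apart, with means of 0.115 ± 0.0021 and 0.338 ± 0.047 FPKM (SD, n = 2 each), a ratio of 2.94, or 2.03-fold with the pseudocount. *Sox2ot*, in whose locus *Sox2* lies, was at 0.170 and 0.213 FPKM in controls, against 0.126 and 0.266 in the mutants, which overlapped.

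*Sox8* was at 0.105 FPKM in the *Foxf2*+/+ control, 0.209 in the *Foxf2*+/- control, and 0.238 and 0.347 in the mutants, about 8, 19, 19 and 31 reads. The first mutant was close to the *Foxf2*+/- control, so the groups were separated by a small margin. The log2 difference of the mutant mean was 0.93 against the *Foxf2*+/+ control and 0.33 against the *Foxf2*+/- control.

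Of the 5 lineage-restricted genes, 3 had both mutants above both controls, beside 15.6% of the 6017 genes below the filter and 18.1% of the 3160 genes with a mean FPKM from 0.1 to 1. Another 15.9% of the genes below the filter had both mutants below both controls. Exceeding each control by over 1.5-fold was an upward criterion met by 2 of the 5, *Sox10* and *Sox2*, beside 4.4% of the genes below the filter and 5.16% of those with a mean FPKM from 0.1 to 1. An exact permutation test of 2 against 2 embryos cannot go below p = 0.33, and *Sox10*, *Sox2* and *Sox8* each gave that value (two-sided).

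The limma fit with no filter, over 17171 genes, gave *Sox2* a log2 difference of 1.02 (standard error 0.24, adjusted p = 0.375) and *Sox10* one of 1.03 (standard error 0.256, adjusted p = 0.390). *Sox8* differed by 0.63 (standard error 0.319, adjusted p = 0.558, limma). Thus 0 of the 5 genes passed in limma, while 2 of the 5 had an unadjusted p under 0.05, 0.0070 for *Sox2* and 0.0090 for *Sox10*. That fit called 0 genes in all, although 1777 had an unadjusted p under 0.05, so it did not call even *Foxf2*. Upward unadjusted calls were made for 3.77% of the genes below the filter.

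*Sox18*, the endothelial and lymphatic factor, was the most abundant of the 5 by its mean, but its groups overlapped. It was at 0.164 FPKM in the *Foxf2*+/+ control, 0.471 in the *Foxf2*+/- control, and 0.323 and 0.709 in the mutants, about 7, 23, 14 and 35 reads. Its log2 difference of 0.59 (95% interval -0.68 to 1.87, adjusted p = 0.714, limma with no filter) was 0.03 without the *Foxf2*+/+ embryo and 1.15 without the *Foxf2*+/- embryo. It was 0.12 without the second mutant and 1.06 without the first.

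*Sox17*, its SoxF relative, was listed at 0 in both controls and in 1 mutant, and at 0.029 FPKM in the other, about 3 reads. A single read would have given 0.0104 to 0.0124 FPKM. *Sox17* was the lowest member in every embryo. The ranges of *Sox18*, *Sox10*, *Sox2* and *Sox8* overlapped, and the full order of these 4 differed between embryos. Within each of the 4 embryos *Sox18* was above both *Sox2* and *Sox8*.

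The 5 genes together made up 0.343% and 0.652% of the summed *Sox* FPKM in controls, against 0.952% and 1.19% in the mutants. The SoxC level was 240 and 128 times the lineage-restricted level in the controls and 88.3 and 69.8 times in the mutants. As the SoxC sums overlapped, these ratios moved through the lineage-restricted genes, whose sum was 0.524 and 0.953 FPKM in controls, against 1.34 and 1.81 in the mutants.

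**Figure D3:**
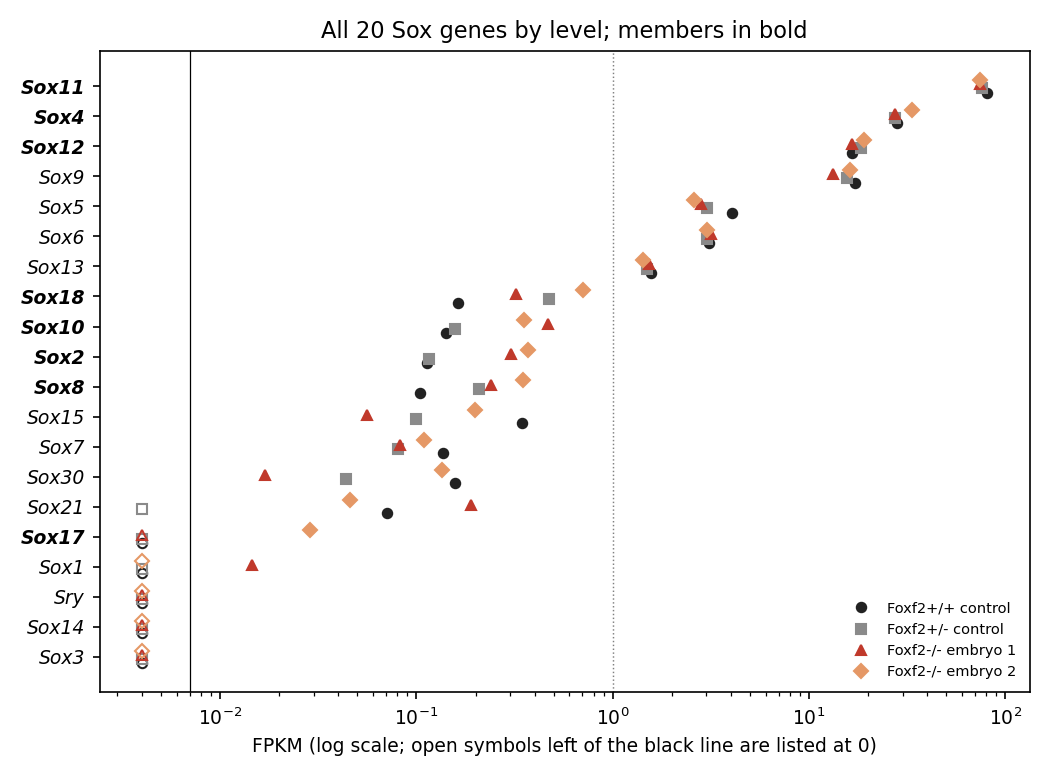
FPKM of all 20 *Sox* genes in the 4 embryos on a log axis, ordered by mean level, with the 8 members in bold; open symbols left of the black line are values listed at 0 and the dotted line marks 1 FPKM. The SoxC genes have the 3 highest means, and *Sox18*, *Sox10*, *Sox2* and *Sox8* sit below 1 FPKM among genes that scatter between embryos.

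Of the 12 other *Sox* genes, 4 had a mean of at least 1 FPKM and limma called 0 of the 4. *Sox9* was at 17.2 and 15.6 FPKM in controls, against 13.2 and 16.1 in the mutants (adjusted p = 0.589, limma). *Sox5* was at 4.06 and 3.02 FPKM against 2.80 and 2.59, with both mutants below both controls (adjusted p = 0.422, limma), a pattern of 35.8% of genes past the filter. *Sox6* stayed between 3.03 and 3.16 FPKM and *Sox13*, the third SoxD gene, between 1.43 and 1.57. The other 8 were below the filter, and *Sox3*, *Sox14* and *Sry* were listed at 0 in all 4 embryos. *Sox7*, the remaining SoxF gene, was at 0.137 and 0.080 FPKM in controls, against 0.083 and 0.109 in the mutants.

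Markers of endothelium, glia, epithelium and other cell types were read beside the low genes. In bulk RNA, more cells of a type and more RNA per cell cannot be told apart. Of the 12 endothelial markers, 11 were below 1 FPKM on average, and *Cldn5*, a tight-junction gene, was listed at 0 in every embryo. Their summed FPKM was 2.33 and 3.49 in the controls and 3.21 and 4.10 in the mutants, so the groups overlapped. *Erg*, the 1 endothelial marker past the filter, was at 1.31 and 1.89 FPKM in controls, against 1.27 and 1.27 in the mutants. Both mutants were below both controls, as for 35.8% of all genes past the filter. Without *Erg* the sum was 1.03 and 1.597 in the controls and 1.95 and 2.84 in the mutants, and the groups did not overlap. Of the 11 markers below the filter 4, *Cdh5*, *Kdr*, *Emcn* and *Egfl7*, had both mutants above both controls, beside 15.6% of all genes below it. Among these, *Cdh5*, *Kdr* and *Emcn*, 3 of the 12, were higher than each control by more than 1.5-fold. That held for 4.4% of the genes below the filter. Lower by as much were 0 of the 12, beside 3.62%. *Emcn*, an endothelial surface gene, was listed at 0 in the *Foxf2*+/+ control and was at 0.346 FPKM in the *Foxf2*+/- control and 0.450 and 0.812 in the mutants.

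Erythroid genes varied most. The FPKM summed over 9 of them, chiefly the embryonic globins *Hbb-y* and *Hba-x*, was 297 in the *Foxf2*+/+ control, 1837 in the *Foxf2*+/- control, and 1597 and 4375 in the mutants, the same order across embryos as *Sox18*. That order was not particular to erythroid genes. The macrophage and oral epithelium sums, the endothelial sum with *Erg*, and *Sox12* ranked the embryos in the same way. Of the 9 erythroid genes, 8 passed the filter and limma called 0 of them. *Hba-a2* and *Hbb-b1*, 2 of the 9, had both mutants above both controls, beside 9.89% of all genes past the filter. With *Hba-x*, 3 were higher than each control by more than 1.5-fold, beside 0.717%, and 0 were lower by as much, beside 0.681%. The part of blood or endothelial RNA in the *Sox18* values was not tested.

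Among Schwann and neural crest glia markers, the most abundant, *Ngfr*, was at 58.5 to 75.2 FPKM. With it the 9 markers summed to 77.8 and 68.3 FPKM in controls, against 64.9 and 77.1 in the mutants, and the groups overlapped. The other 8 summed to 2.55 and 1.92 in the controls and 6.41 and 3.16 in the mutants, and the groups did not overlap. *Fabp7*, a glial lipid carrier, made up most of the sum of these 8 in the first mutant alone. It was at 0.742 and 0.224 FPKM in controls, against 4.58 and 0.898 in the mutants. Without *Fabp7* as well, the sum was 1.81 and 1.69 in the controls and 1.83 and 2.26 in the mutants, highest in the second mutant and not in the first, where *Sox10* was highest. *Erbb3*, a neuregulin receptor gene of the glial lineage, overlapped between groups at 0.0187 to 0.164 FPKM. *Foxd3*, a neural crest factor, was at 0.050 and 0.043 FPKM in controls, against 0.097 and 0.129 in the mutants. Thus 2 of the 9 markers, *Fabp7* past the filter and *Foxd3* below it, had both mutants above both controls, a pattern of 9.89% of all genes past the filter and 15.6% of those below it. Of the 9, *Fabp7* alone was higher than each control by more than 1.5-fold, beside 0.717% of the genes past the filter, and 0 were lower by as much. The part of glial RNA in the *Sox10* values was not tested.

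Of the genes linked to Sox10, 1 of 9 passed the filter, *Ednrb*, the endothelin receptor gene of neural crest. It was at 1.11 and 1.37 FPKM in controls, against 1.99 and 1.67 in the mutants, a log2 difference of 0.53 that was not significant (adjusted p = 0.359, limma). *Ret*, a receptor kinase gene of neural crest derivatives, was at 0.255 and 0.349 FPKM against 0.501 and 0.485. Both its mutant values were above both controls, as for 15.6% of the genes below the filter. *Mitf* overlapped between groups, at 0.217 to 0.317 FPKM, and *Dct* and *Gjb1*, of melanocytes and myelin, were listed at 0 in every embryo. Melanocyte markers summed to 2.52 and 2.52 FPKM in controls, against 2.58 and 2.54 in the mutants, of which *Tyr* gave 2.02 to 2.32.

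Oral epithelium markers, the set beside which *Sox2* was read, summed to 8.90 and 9.93 FPKM in controls, against 9.61 and 11.99 in the mutants. The highest, *Krt18*, a simple epithelial keratin, was at 2.22 to 3.11 FPKM, and *Krt14* was at 0.915 and 2.02 in the controls and 1.16 and 1.58 in the mutants. *Krt15*, *Cdh1*, *Trp63* and *Esrp1* were the 4 of 12 with both mutants above both controls, all among the 7 below the filter, where 15.6% of all genes had that pattern. Of the 12, *Cdh1* alone was higher than each control by more than 1.5-fold, beside 4.4% of the genes below the filter, and 0 were lower by as much. *Esrp1*, an epithelial splicing factor gene, was at 0.080 and 0.292 FPKM in controls, against 0.495 and 0.370 in the mutants. The part of epithelial RNA in the *Sox2* values was not tested.

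Of the remaining lists, limma called none of the 5 neuron and 3 macrophage markers past the filter. No skeletal muscle or lymphatic marker passed the filter, so that fit did not test them. Neuron markers summed to 20.8 and 26.5 FPKM in controls, against 25.7 and 24.5 in the mutants, led by the neurofilament genes *Nefl* and *Nefm*. Macrophage markers summed to 7.07 and 9.64 FPKM against 7.97 and 10.98. Skeletal muscle markers summed to 1.37 and 1.49 FPKM in controls, against 0.791 and 0.905 in the mutants, with *Myog* listed at 0. All 10 were below the filter, and 4 of them had both mutants below both controls, beside 15.9% of the genes below it. *Actc1*, a muscle actin gene, was the 1 of the 10 lower by more than 1.5-fold than each control, beside 3.62% of the genes below the filter. Lymphatic markers summed to at most 0.332 FPKM. The 12 palatal mesenchyme markers all passed the filter and summed to 1051 to 1304 FPKM, and the 1 that limma called was *Foxf2*.

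**Figure D4:**
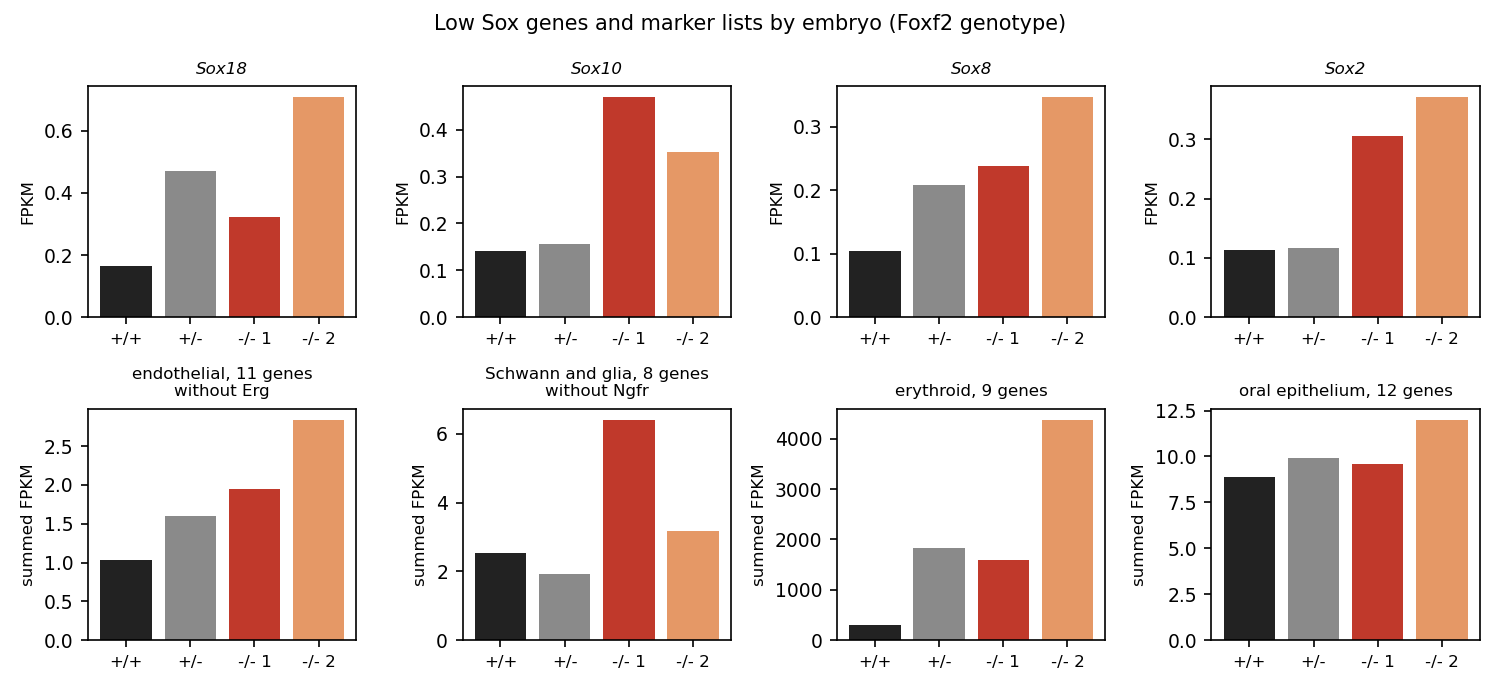
FPKM of *Sox18*, *Sox10*, *Sox8* and *Sox2* (top) and FPKM summed over marker lists (bottom) in each embryo, as bars from 0 on linear axes, 1 bar per embryo by *Foxf2* genotype. The endothelial sum leaves out *Erg* and the glial sum *Ngfr*, each the most abundant gene of its list. With these genes included, the groups overlap in both sums. *Sox18* ranks the embryos as do the erythroid and epithelial sums, which keep every gene. The glial sum's peak in the first mutant is mostly *Fabp7*, at 4.58 of 6.41 FPKM.

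*Nr2f2*, the venous and mesenchymal nuclear receptor that partners Sox18 in lymphatic endothelium, was at 3.97 and 4.63 FPKM in controls, against 6.89 and 7.56 in the mutants. Both mutants were above both controls, a pattern of 9.89% of all genes past the filter. The mutant mean of *Nr2f2* exceeded each control by more than 1.5-fold, as for 0.717% of those genes. Its log2 difference was 0.74 (standard error 0.125, adjusted p = 0.123, limma). *Mef2c*, a transcription factor gene, was at 4.25 and 3.62 FPKM against 4.43 and 5.39, with both mutants above both controls (adjusted p = 0.426, limma). *Vcam1*, an adhesion gene activated by Sox18, was at 9.31 and 8.12 FPKM in controls, against 7.23 and 7.60 in the mutants, both below the controls (adjusted p = 0.441, limma). That downward pattern held for 35.8% of all genes past the filter. *Notch1* overlapped between groups at 2.26 to 2.97 FPKM. Of the 8 genes 4 passed the filter, limma called 0 of the 4, and *Prox1*, *Dll4*, *Notch4* and *Cldn5* did not exceed 0.216 FPKM. Over these linked genes, 10 of 24 passed the filter and 2 of the 10, *Nr2f2* and *Ednrb*, had an unadjusted p under 0.05 in limma, beside 13% of all genes past the filter.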

How the data were processed

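RNA-seq tables from 4 embryos were used, 2 *Foxf2*-/- and 2 controls. Single-end reads had been aligned to mm9 with Bowtie (0.12.7 in the submitters' processing notes) and Tophat, and the authors deposited FPKM per RefSeq transcript as Cufflinks tables, with 28107 entries for each embryo and no pooling. The Cufflinks version and options are not given in the sources used here. The deposited coverage is an unscaled signal, the read depth averaged along each transcript. Coverage times length had a peak at the lowest nonzero values, whose median was taken as 1 read. Depth in reads is not stated, and no interval needing counts is given.

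Entries of at least 200 bases were summed by symbol after removing 10 genes with a failed estimate, leaving 21352 genes. Genes with a mean of at least 1 FPKM over the 4 embryos were fitted on log2(FPKM + 0.1) with limma 3.58.1 in R 4.3.3 (variance trend, Benjamini-Hochberg adjustment, adjusted p under 0.05 and more than 1.5-fold). Members below that level were read from the fit without a filter. The second criterion required more than 1.5-fold against each control, as in the study, without its Audic-Claverie test, which needs read numbers. The limma p-values set each difference against the spread between embryos within the groups, with the variance moderated across genes. In the controls that spread includes the difference between the *Foxf2*+/+ and *Foxf2*+/- genotypes. The limma script was tested on simulated data. Loci are mm9, and the annotation was GENCODE on NCBIM37. Python 3.11.15, pandas 2.3.3 and numpy 2.4.6 were used. Named genes were the members, the other *Sox* genes with a mean of at least 1 FPKM, genes linked to each *Sox* group, the 2 most abundant of each marker list with those at 0, and the 2 nearest genes to each SoxC gene. Other markers, linked genes below the filter and *Sox* genes below it were named after their values were seen. The members and lists were chosen with earlier results of these data known. Some items are not reported here. The background of genes from 0.1 to 1 FPKM was chosen after the values were seen. Alternatives varied the pseudocount, filter, entries, scaling, limma design, fold threshold and embryos.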

Additional observations from a re-analysis of the deposited data

How the results depend on the processing

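The SoxC genes stayed uncalled by limma under each of 14 alternatives, with adjusted p-values of 0.546 to 0.982 for *Sox11*, 0.455 to 0.973 for *Sox4* and 0.741 to 0.986 for *Sox12*. Leaving out each embryo in turn gave log2 differences of -0.13 to -0.04 for *Sox11*, -0.01 to 0.27 for *Sox4* and -0.07 to 0.12 for *Sox12*. The sign reversed for *Sox4* without the second mutant (-0.0116) and for *Sox12* without the *Foxf2*+/+ control (-0.04) or without the second mutant (-0.0681).

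The same omissions gave 0.86 to 1.19 for *Sox10*, 0.91 to 1.13 for *Sox2*, 0.33 to 0.93 for *Sox8*, 0.03 to 1.15 for *Sox18* and 0 to 0.37 for *Sox17*. The pseudocount also moved the low genes, by its construction. With a pseudocount of 1 the log2 difference was 0.26 for *Sox2*, 0.29 for *Sox10*, 0.16 for *Sox8* and 0.20 for *Sox18*, and with 0.01 it was 1.47 for *Sox2*, 1.39 for *Sox10*, 0.98 for *Sox17* and 0.76 for *Sox18*. *Sox18* moved more with the embryo left out than with the pseudocount. *Sox2* was at 0.84 with the number of null alleles as a linear term. The SoxC share of *Sox* FPKM, 83.2% on average, was 85.7% with the longest entry only and 82.9% to 83.5% as embryos were left out.

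limma called 7 genes in all. It called 13 with a pseudocount of 1, 27 with entries of all lengths, 20 with a mean for each genotype and 15 with a linear term, and 0 with no filter, with the longest entry only or with no variance trend. Leaving out 1 embryo gave 7 to 38 genes, the most without the *Foxf2*+/- control, and 11 without either mutant. The criterion of 1.5-fold against both controls gave 156 genes, 67 with a pseudocount of 1, 49 with the filter of 5 FPKM in 1 embryo, 639 with no filter, 291 with entries of all lengths, 331 with the longest entry only and 36 at more than 2-fold. It gave 213 to 572 with 1 embryo left out. Without the *Foxf2*+/+ control it gave 292 and without the *Foxf2*+/- control 572, where 1 control in place of 2 loosens it by construction, and without the second mutant it gave 240. The cause of the other shifts was not tested. No paired analysis was possible because the labels number only the mutant embryos. Depth limits the 5 low genes to about 0 to 35 reads per embryo.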
